A study of Rattus norvegicus with 18 samples.

Results

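The mitochondrial genome of the rat encodes 7 subunits of respiratory complex I, named here Mt-nd1 (ENSRNOG00000030644), Mt-nd2 (ENSRNOG00000031033), Mt-nd3 (ENSRNOG00000033615), Mt-nd4l (ENSRNOG00000031053), Mt-nd4 (ENSRNOG00000029707), Mt-nd5 (ENSRNOG00000029971) and Mt-nd6 (ENSRNOG00000029042). They were followed in the hearts of 3-week-old male Wistar rat offspring, as 7 of the 30560 genes of the deposited count table. The 7 were picked by Ensembl identifier from a fixed pairing of identifier and symbol, by a rule that uses no measured value. No table used here pairs Ensembl identifiers with symbols, so neither that pairing nor the cardiac identity of the tissue could be checked against marker genes. All 7 passed the filter on low counts, which 17009 genes passed.

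Complex I, or NADH dehydrogenase, takes electrons from NADH, hands them to ubiquinone and pumps protons across the inner mitochondrial membrane. The subunits encoded in the mitochondrion form the core of its membrane arm, while the arm that binds NADH is encoded in the nucleus. Mammalian mitochondrial DNA is transcribed from both strands into long precursors that are cut at the transfer RNAs between the genes, so messages of 1 strand are made together and their later levels depend on processing and stability. Mt-nd6 is the only messenger RNA of the light strand, and Mt-nd4l and Mt-nd4 share 1 message with overlapping reading frames. Heart muscle is dense in mitochondria, and their transcripts make up a large part of its messenger RNA.

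The groups were offspring of dams given vehicle during gestation (7 hearts, 0 mg/kg/day), cannabidiol (CBD) at 3 mg/kg/day (CBD3, 6 hearts) or CBD at 30 mg/kg/day (CBD30, 5 hearts). The labels name no transgene or other treatment, and they do not say which offspring shared a litter. The dams were dosed, while the p-values and intervals take each heart as independent and rest on the spread between these hearts. Hearts from shared litters could make the p-values too low and the intervals too narrow. Hearts are named by the code in their column, such as CBD30 2.1, because 4 vehicle columns could not be tied to a replicate number. The codes end in digit 1 (4 vehicle, 3 CBD3 and 2 CBD30 hearts) or in digit 2 (3 of each group), and no label says what the digit stands for.

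The libraries held 44321480 to 80451013 counts in vehicle, 56992503 to 89240727 in CBD3 and 44127009 to 82220752 in CBD30 hearts. Within each group, every heart with a code ending in 1 had more counts than any ending in 2. Mean totals for digits 1 and 2 were 72079092 and 47366589 in vehicle, 85049898 and 63839470 in CBD3, and 75222721 and 55263767 in CBD30 hearts. The lowest count of any member in any heart was 44757, for Mt-nd4l in CBD30 2.1, which corresponds to a counting error of 0.473%. Counting error therefore added little to the spread described below. In bulk tissue, fewer muscle cells, fewer mitochondria per cell and less RNA per mitochondrion cannot be told apart.

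Together the 7 genes took 4.11% to 8.04% of all counts in a heart, and the share did not separate the groups. In vehicle hearts the lowest, median and highest shares were 4.72%, 6.19% and 8.04%, with a mean of 6.52% ± 1.203 (SD, n = 7). In CBD3 hearts they were 4.11%, 6.31% and 6.88%, with a mean of 6.01% ± 1.05 (SD, n = 6). The CBD30 hearts 1.1, 2.1, 1.2, 3.2 and 4.2 had 6.07%, 6.37%, 6.29%, 6.37% and 5.88%, with a mean of 6.19% ± 0.215 (SD, n = 5). All 5 CBD30 hearts lay inside the range of the vehicle hearts. The extremes were CBD3 3.2 at the low end and vehicle 1.2 at the high end. The spread was narrowest in CBD30 hearts, and this difference in spread was not tested.

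**Figure D1:**
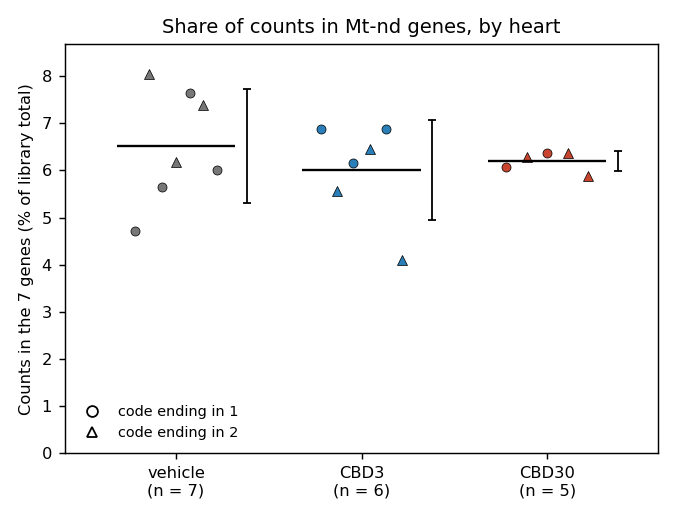
Percent of each library's counts that fell in the 7 Mt-nd genes (vertical axis, from 0) in vehicle, CBD3 and CBD30 hearts; circles are hearts whose code ends in 1 and triangles those ending in 2, the line is the group mean and the bar the SD. The groups overlap, CBD3 3.2 is lowest at 4.11% and vehicle 1.2 highest at 8.04%.

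Levels are given below as CPM (counts scaled to a fixed library size) adjusted by TMM, which sets libraries on a common scale from the bulk of their genes. Its factors ran against the mitochondrial share at both ends of the vehicle group, at 0.879 in vehicle 1.2, with the highest share, and 1.15 in vehicle 1.1, with the lowest. Scaling therefore widened the spread. The highest heart exceeded the lowest 1.96-fold in the share and 2.38-fold in summed CPM. Gene lengths were not used here, so levels were compared between hearts and not between genes.

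Mt-nd1 forms part of the ubiquinone-binding site, where the membrane arm meets the arm that oxidises NADH. Its lowest, median and highest levels were 11858, 14338 and 23465 CPM in vehicle hearts and 12899, 16754 and 19011 CPM in CBD3 hearts. The CBD30 hearts 1.1, 2.1, 1.2, 3.2 and 4.2 had 16195, 21195, 18668, 14991 and 18021 CPM. Vehicle hearts spanned the whole range seen in either CBD group. By counts, Mt-nd1 ranked between 7th and 9th of all genes in every heart, the steadiest rank of the 7.

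Mt-nd2, Mt-nd4 and Mt-nd5 are the subunits related to ion antiporters that carry the proton channels. For Mt-nd2 the lowest, median and highest levels were 8222, 12221 and 21023 CPM in vehicle hearts and 7132, 12987 and 17006 CPM in CBD3 hearts. The CBD30 hearts, in the same order, had 12182, 15220.3, 12753, 13543 and 10622 CPM. Mt-nd4 was at 10597, 16571 and 25436 CPM (lowest, median, highest) in vehicle hearts and at 9714, 18519.6 and 20779 CPM in CBD3 hearts. Its levels in CBD30 hearts were 16077, 19360.3, 17746, 18432 and 14046 CPM, all inside the vehicle range. Mt-nd5 was at 4838, 8033 and 9732 CPM in vehicle hearts and at 4461, 7395 and 8712 CPM in CBD3 hearts. In CBD30 hearts it had 5947, 6611, 8019.6, 7495 and 6876 CPM, again all inside the vehicle range. For these 3 genes CBD3 3.2 was the lowest heart of the study, and it lay below every vehicle heart.

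Mt-nd3, Mt-nd6 and Mt-nd4l are small membrane subunits near the junction of the 2 arms. Mt-nd3 had lowest, median and highest levels of 2194, 3253 and 5663 CPM in vehicle hearts and 2063, 3551 and 3834 CPM in CBD3 hearts. Its CBD30 levels were 3688, 5125, 3698, 3179.9 and 3004 CPM, inside the vehicle range. Mt-nd6, of the light strand, had 1899.6, 2928 and 4393 CPM in vehicle hearts and 1509, 3351 and 3604 CPM in CBD3 hearts. Its CBD30 levels were 3106, 4659, 3400.5, 3146 and 2955 CPM, and CBD30 2.1 was the highest heart of the study. These genes varied 2.74-fold (Mt-nd3) and 3.09-fold (Mt-nd6) between the highest and the lowest heart.

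Mt-nd4l had the widest range of the 7, 3.22-fold, and its rank by counts moved between 29th and 120th. Its lowest, median and highest levels were 1053, 1855 and 2298 CPM in vehicle hearts. In CBD3 hearts they were 714, 1354 and 1616 CPM. The CBD30 hearts 1.1, 2.1, 1.2, 3.2 and 4.2 had 1115, 752, 1449, 1582 and 1139 CPM. Vehicle 2.1 was the highest heart and CBD3 3.2 the lowest. The groups overlapped, although 4 of 7 vehicle hearts exceeded every CBD3 and every CBD30 heart.

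**Figure D2:**
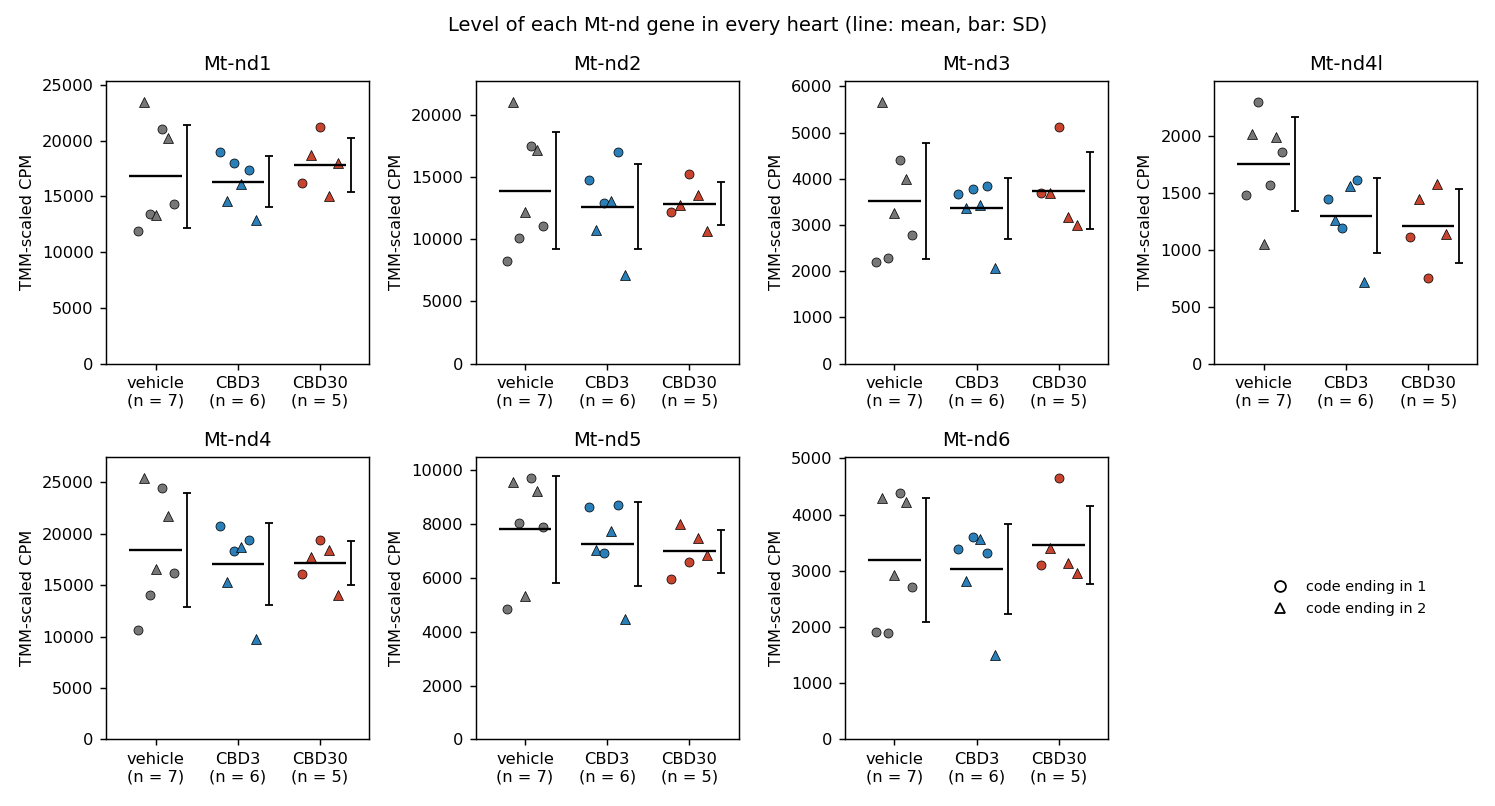
TMM-scaled CPM of each Mt-nd gene (vertical axes, each from 0) in every vehicle, CBD3 and CBD30 heart; circles are codes ending in 1, triangles codes ending in 2, lines are means and bars SDs. The groups overlap for all 7 genes, and the Mt-nd4l means run at 1752 CPM in vehicle, 1298 in CBD3 and 1207 in CBD30 hearts.

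By their median, the 7 genes varied more within groups than the typical gene in vehicle and CBD3 hearts and less in CBD30 hearts. This difference was not tested. The median coefficient of variation of the 7 genes was 30.1% in vehicle, 23.5% in CBD3 and 13.4% in CBD30 hearts. Over all 17009 genes tested, not matched for abundance, it was 20.9%, 15.4% and 18.9% in the same order. Single genes departed from the median. In CBD30 hearts Mt-nd3 (22.3%), Mt-nd4l (26.8%) and Mt-nd6 (20.1%) were above 18.9%. In CBD3 hearts Mt-nd1 (13.9%) was below 15.4%.

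CBD30 was compared with vehicle to ask whether exposure to the higher dose before birth left a difference in heart transcripts. None of the 7 genes passed an adjusted p of 0.05 (edgeR quasi-likelihood test, adjusted over 17009 genes), as did 0% of all genes tested. Mt-nd4l stood nearest to the threshold, at a mean of 1207 CPM over the CBD30 hearts (SD 324, n = 5) and of 1752 CPM over the vehicle hearts (SD 415, n = 7). Its log2 fold change was -0.54 ± 0.21 (SE), with a 95% interval of -0.99 to -0.09 and an adjusted p of 0.239. Only 1 of the 5 CBD30 hearts, CBD30 2.1, lay below the lowest vehicle heart. Its unadjusted p was 0.0212, the only one of the 7 under 0.05, a limit that 16.4% of all genes also met, 9.11% as higher and 7.31% as lower in CBD30. Without CBD30 2.1 the log2 fold change was -0.41 and the unadjusted p 0.0706.

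The other 6 genes differed less between CBD30 and vehicle. Mt-nd1 averaged 17814 ± 2387 CPM in CBD30 and 16817 ± 4611 CPM in vehicle hearts (SD). Its log2 fold change was 0.08, with an SE of 0.17 (edgeR adjusted p = 0.821). Mt-nd3 and Mt-nd6 had log2 fold changes of 0.09 ± 0.22 and 0.11 ± 0.24 (SE). Mt-nd2, Mt-nd4 and Mt-nd5, the subunits with proton channels, had -0.11 ± 0.23, -0.11 ± 0.21 and -0.16 ± 0.19 (SE). Each of these 6 intervals held 0, and adjusted p-values ran from 0.668 to 0.849. In all, 3 of 7 log2 fold changes were above 0, against 46.8% of all genes tested, and their median was -0.11, against -0.02 over all genes. With 1 heart left out at a time, the median ran from -0.20, without vehicle 1.1, to 0.017, without vehicle 1.2. The 95% interval of every member lay within 2-fold either way, as it did for 82.4% of all genes. No member separated the groups, while 0.629% of all genes did.

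CBD3 was compared with the same 7 vehicle hearts, so these values are not independent of those above. None of the 7 genes passed an adjusted p of 0.05 (edgeR, 0% of all genes). Mt-nd4l had a mean of 1298 CPM over the CBD3 hearts (SD 329, n = 6) and of 1752 CPM over the vehicle hearts (SD 415, n = 7). This was a log2 fold change of -0.43 ± 0.20 (SE), with a 95% interval of -0.86 to -0.01 and an adjusted p of 0.551. Its unadjusted edgeR p was 0.0452, under a limit that 8.92% of all genes met, 3.89% as higher and 5.03% as lower in CBD3. With relative log expression factors or the code digit as a covariate, the edgeR p was 0.0511 and 0.0512. It stayed under 0.05 in edgeR scaled by library size only (0.0281) or without the low-count filter (0.0445). The same held in DESeq2 (0.0385) and limma (0.0478). CBD3 3.2 was the only CBD3 heart below the lowest vehicle heart. Without it the log2 fold change of Mt-nd4l was -0.31, and 0 members had an unadjusted p under 0.05. Leaving out other single hearts moved the unadjusted edgeR p to either side of 0.05, such as 0.0992 without vehicle 2.1 and 0.0381 without vehicle 1.1.

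The remaining 6 genes had log2 fold changes between -0.04 ± 0.17 for Mt-nd1 and -0.14 ± 0.21 for Mt-nd2 (SE; edgeR adjusted p = 0.789 to 0.924). Mt-nd4 averaged 17039 ± 4012 CPM in CBD3 and 18437 ± 5556 CPM in vehicle hearts (SD), and its log2 fold change was -0.11 ± 0.20. All 7 estimates were below 0, under every scaling tried, where 46.6% of all genes had one above 0. Their direction depended on the hearts used: 5 of 7 were above 0 without CBD3 3.2, and 6 of 7 among codes ending in 1. Each gene followed the mean of the others with a Pearson correlation of 0.32 (Mt-nd4l) to 0.97 (Mt-nd4). The 7 directions are therefore not independent. The median was -0.11 for the 7 genes and -0.02 for all genes tested. With 1 heart left out at a time, it ran from -0.19, without vehicle 1.1, to 0.0052, without CBD3 3.2. Intervals lay within 2-fold either way for all 7 (85.6% of all genes), and no member separated the groups (0.194% of all genes).

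Between the doses, no gene of the 7 passed an adjusted p of 0.05 (edgeR, 0% of all genes), and none had an unadjusted p under 0.05, which 1.73% of all genes had, 0.735% as higher and 0.994% as lower in CBD30. Mt-nd6 had the highest estimate, at a mean of 3453 CPM over the CBD30 hearts (SD 693, n = 5) and of 3034 CPM over the CBD3 hearts (SD 796, n = 6). Its log2 fold change was 0.19 ± 0.25 (SE), with a 95% interval of -0.33 to 0.70. Mt-nd4l had the lowest, at -0.10 ± 0.22, with an interval of -0.56 to 0.35. The edgeR adjusted p was 0.999 for each of the 7. Estimates were above 0 for 5 of 7 genes (53.1% of all genes), with a median of 0.03, against 0.01 over all genes. With 1 heart left out at a time, it ran from -0.091, without CBD3 3.2, to 0.13, without CBD3 3.1. These intervals also lay within 2-fold (86.9% of all genes), and no member separated the doses (0.218% of all genes).

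**Figure D3:**
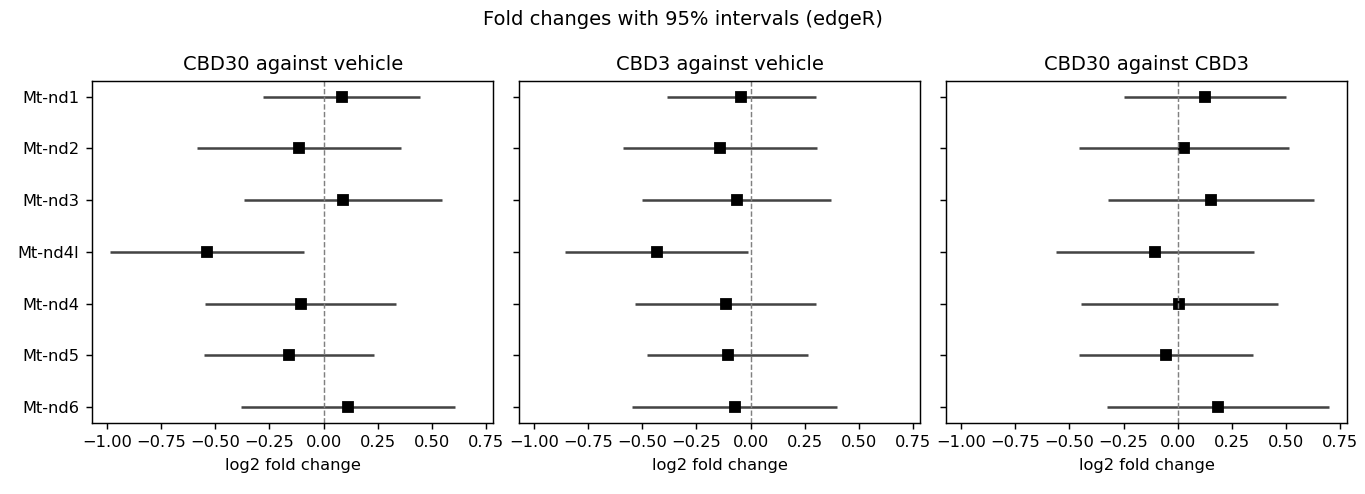
Log2 fold change (horizontal axis) of each Mt-nd gene in the 3 comparisons, from 1 edgeR fit of all 18 hearts; squares are estimates, lines 95% intervals and the dashed line no difference. The Mt-nd4l interval lies below 0 against vehicle for both doses, though no gene passed after adjustment over all genes.

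The estimates against vehicle differed by the last digit of the code. Among codes ending in 1, the CBD30 hearts 1.1 and 2.1 had 12182 and 15220.3 CPM of Mt-nd2, and the vehicle hearts 1.1, 2.1, 3.1 and 4.1 had 8222, 10124, 17496 and 11055 CPM. Among codes ending in 2, the CBD30 hearts 1.2, 3.2 and 4.2 had 12753, 13543 and 10622 CPM, and the vehicle hearts 1.2, 2.2 and 3.2 had 21023, 12221 and 17180.5 CPM. For Mt-nd2 the CBD30 hearts thus covered a like range in both sets, while 3 of 4 vehicle hearts ending in 1 lay below all vehicle hearts ending in 2.

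For CBD30 against vehicle, the log2 fold change of Mt-nd2 was 0.22 in codes ending in 1 and -0.45 in codes ending in 2. That of Mt-nd3 was 0.59 and -0.38, and that of Mt-nd6 0.51 and -0.27, in the same order. Mt-nd4l was below 0 in both sets, at -0.95 and -0.28, and so was Mt-nd5, at -0.28 and -0.11. For CBD3 against vehicle, 6 of 7 genes had an estimate above 0 in codes ending in 1 (5 of 7 when scaled by library size only, with Mt-nd5 at -0.023), and all 7 were below 0 in codes ending in 2. Mt-nd4l was again the exception, at -0.34 and -0.52.

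The difference between the sets was itself tested, over all genes. For CBD30 it was largest for Mt-nd3, at 0.98 ± 0.39 (log2, SE; edgeR interaction, unadjusted p = 0.0234, adjusted p = 0.376). Scaled by library size only, the difference was -0.85 for Mt-nd4l and 0.79 for Mt-nd3. For CBD3 it was largest for Mt-nd2, at 1.05 ± 0.39 (log2, SE; unadjusted p = 0.0146, edgeR interaction adjusted p = 0.532). No member passed after adjustment for either dose, and of all 17009 genes 1 passed for CBD30 and 0 for CBD3. At an unadjusted p under 0.05 there was 1 of the 7 for CBD30, against 12.9% of all genes. For CBD3 there were 2 of the 7, Mt-nd2 and Mt-nd3, against 9.02% of all genes. These counts depended on the scaling. By library size only, Mt-nd1 (0.0418) and Mt-nd4 (0.0471) were also under it for CBD3 (edgeR interaction, unadjusted p), against 10.4% of all genes. For CBD30 Mt-nd4l was added (0.0488), against 11.6% of all genes. Each set holds only 2 to 4 hearts of a group. The sets also differed in library depth within every group, and the part of depth in these estimates was not tested.

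**Figure D4:**
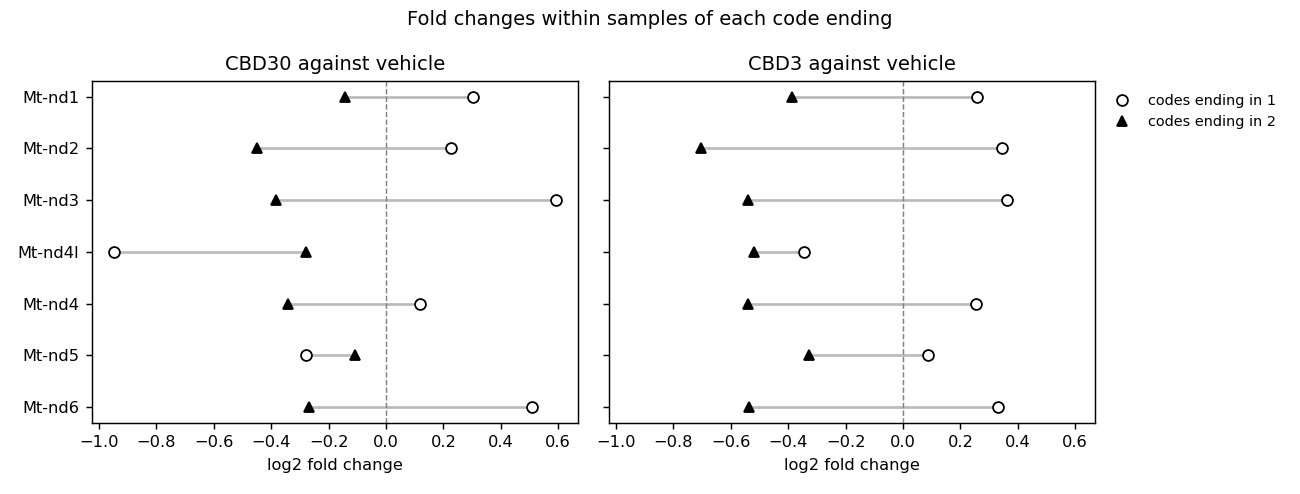
Log2 fold change against vehicle (horizontal axis) of each Mt-nd gene within hearts whose code ends in 1 (open circles) and in 2 (filled triangles), for CBD30 on the left and CBD3 on the right, from the edgeR fit with a cell for each group and digit. Most genes sit on opposite sides of the dashed line of no difference, while Mt-nd4l is below 0 in all 4 estimates.

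Ratios of counts between 2 of the genes within a heart need no scaling between libraries. Mt-nd2 and Mt-nd4, which are separate messages of the heavy strand, kept the steadiest ratio of the 21 pairs. Its log2 value varied by 0.36 from the lowest heart to the highest (SD 0.09 over 18 hearts). The ratio of Mt-nd4l to Mt-nd6 varied most, by 2.91 on the log2 scale (SD 0.59), between CBD30 2.1 and vehicle 2.1. The 5 ratios with the widest SDs, 0.45 to 0.59, all involved Mt-nd4l. Its ratio to Mt-nd5 had an SD of 0.32, close to those of Mt-nd5 to Mt-nd6 (0.33) and Mt-nd3 to Mt-nd5 (0.32).

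Mt-nd4l and Mt-nd4 share a message, yet their counts did not keep a fixed ratio. The hearts vehicle 1.1, 2.1 and 4.1 had 13.9, 16.3 and 11.4 Mt-nd4l counts per 100 Mt-nd4 counts. The other vehicle hearts 3.1, 1.2, 2.2 and 3.2 had 6.42, 7.94, 6.36 and 9.18. CBD3 hearts ran from 6.52 to 8.34, with a median of 7.80. The CBD30 hearts 1.1, 2.1, 1.2, 3.2 and 4.2 had 6.93, 3.88, 8.16, 8.58 and 8.11. Vehicle hearts averaged 10.2 (SD 3.84, n = 7), CBD3 hearts 7.62 (SD 0.788, n = 6) and CBD30 hearts 7.13 (SD 1.92, n = 5). Thus 4 of 7 vehicle hearts exceeded every CBD heart, 3 with codes ending in 1 and vehicle 3.2, whose ratio was nearest to those of the CBD hearts. No test was made of these ratios. Reads in the overlap of the 2 genes could be assigned to either or neither, and how they were counted is not stated in the sources used here.

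Mt-nd6 and Mt-nd5 lie next to each other on opposite strands. Vehicle hearts had 23.6 Mt-nd6 counts per 100 Mt-nd5 counts at the lowest, in vehicle 2.1, a median of 44.8 and 54.8 at the highest. CBD3 hearts ran from 33.8 to 52.0, with a median of 39.7. The CBD30 hearts 1.1, 2.1, 1.2, 3.2 and 4.2 had 52.2, 70.5, 42.4, 42.0 and 43.0. CBD30 2.1 and vehicle 2.1 therefore marked the ends in both ratios: CBD30 2.1 was low in Mt-nd4l and high in Mt-nd6, and vehicle 2.1 was high in Mt-nd4l and low in Mt-nd6. The same hearts marked the ends for Mt-nd3 per 100 Mt-nd4 counts, at 26.5 in CBD30 2.1 and 16.3 in vehicle 2.1. These hearts, coded 2.1, and vehicle 1.1 were also the farthest out on the first principal component of all genes, at 65.5 for CBD30 2.1, -65.0 for vehicle 2.1 and -57.9 for vehicle 1.1. The part of that component in the ratios was not tested. Without these 3 hearts, left out after their values were seen, Mt-nd4l had a log2 fold change of -0.36 for CBD30 against vehicle (edgeR adjusted p = 0.848) and -0.39 for CBD3 against vehicle (edgeR adjusted p = 0.986).

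**Figure D5:**
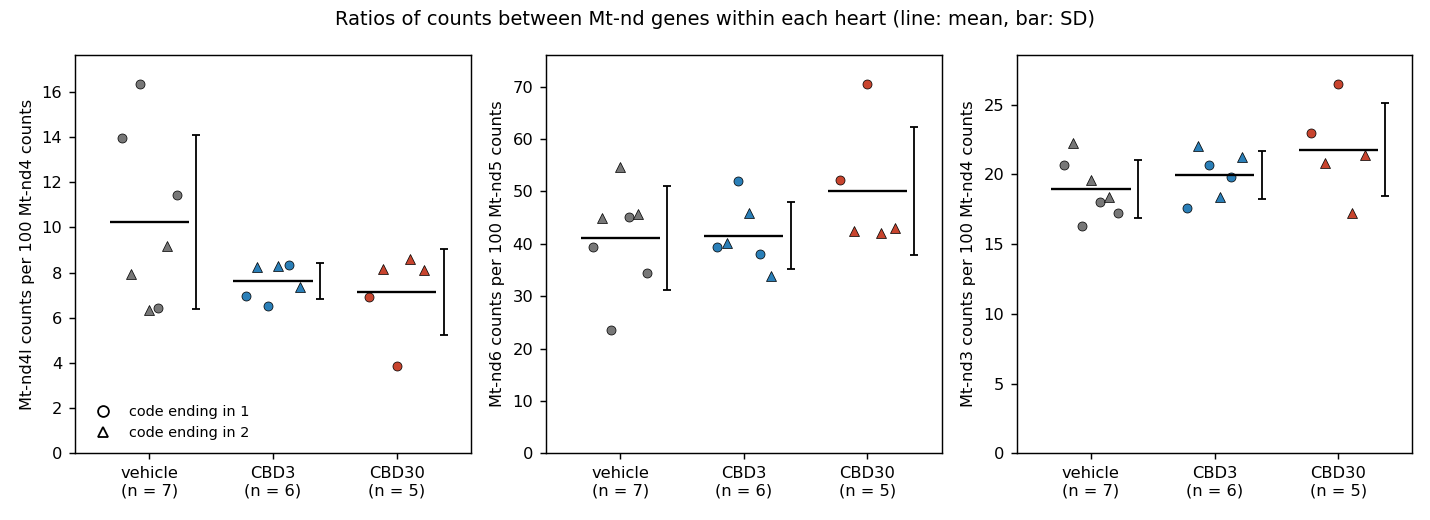
Counts of Mt-nd4l per 100 Mt-nd4, Mt-nd6 per 100 Mt-nd5 and Mt-nd3 per 100 Mt-nd4 counts (vertical axes, each from 0) in every vehicle, CBD3 and CBD30 heart; circles are codes ending in 1, triangles codes ending in 2, lines are means and bars SDs. In the left panel 3 vehicle hearts reach 11.4 to 16.3, and CBD30 2.1 is lowest at 3.88.

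Other genes were ranked by how closely their level followed the mean log2 CPM of the 7 over the 18 hearts, among 13520 genes that averaged 1 CPM or more. The most alike were ENSRNOG00000003117 (Pearson 0.96, Spearman 0.95) and ENSRNOG00000019277 (0.94 and 0.88). The most opposed were ENSRNOG00000061484 (-0.91 and -0.84) and ENSRNOG00000007400 (-0.91 and -0.80). These are the extremes of the ranking and share libraries and scaling with the 7, so they are a description without a test, and their symbols were not given in the sources used here. ENSRNOG00000003117 had a mean of 91.8 CPM over the CBD30 hearts (SD 4.36, n = 5) and of 92.4 CPM over the vehicle hearts (SD 12.4, n = 7).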

How the data were processed

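Hearts of 18 offspring were profiled by RNA sequencing, from a library kit that enriches messenger RNA and keeps the strand, per the labels' protocols. The table deposited by the authors gives raw counts, as whole numbers, for each Ensembl gene. The genome build was mRatBN7.2 and the tools included featureCounts and edgeR, per the submitters' processing notes. The aligner, annotation, counting settings and any adjustment before deposit were not given in the sources used here. Reads that also match nuclear copies of mitochondrial genes, and reads shared by Mt-nd4l with Mt-nd4 or Mt-nd5 with Mt-nd6, make those counts uncertain.

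Genes were kept by filterByExpr (minimum count 10, minimum total count 15), scaled by TMM and tested in 1 fit of 18 samples with edgeR 4.0.16 (R 4.3.3) and its quasi-likelihood test. The Benjamini-Hochberg adjustment ran over all genes tested (threshold 0.05). Standard errors came from the F statistic. Log2 CPM used a prior count of 2. The alternatives included DESeq2 1.42.0 and limma 3.58.1, and the fit was tested on simulated data.

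Of 18 columns, 14 had a replicate number and 4 vehicle columns none. All 46 within-group pairs of libraries differed by more than sampling noise, with a chi-square of at least 34.4 for each degree of freedom. All 7 genes are named, with the 2 genes most alike and the 2 most opposed to them. The rule for the 7 genes uses no measured value, but the family and the lists were chosen with earlier results of these data known. The 6 other gene lists, of nuclear complex I subunits, assembly factors, other mitochondrially encoded subunits, mitochondrial transcription and RNA handling, cardiomyocyte markers and markers of other cell types, could not be matched, because 0 of 47357 reference genes carry an Ensembl identifier, and they were not tested. The reference tables hold 0 mitochondrial genes, so no sequences or lengths are given.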

Additional observations from a re-analysis of the deposited data

Results flagged for a closer look

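Each gene's CPM and its percent of the counts of the 7 genes, and the summed share of the library, were searched for a heart far from the rest of its group. In 45 such sets 7 had one. Chance gives about 1 in 20 for independent sets. These sets share the same hearts and hold genes that vary together, so no excess over chance can be read from the count.

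CBD30 2.1 lay far above the other CBD30 hearts for Mt-nd6, at 4659 CPM against 3400.5 CPM in the nearest heart, and at 6.39% of the counts of the 7 genes against 5.33%. CBD3 3.2 lay far below the other CBD3 hearts for Mt-nd3, at 2063 CPM against 3379 CPM, and for Mt-nd6, at 1509 CPM against 2828 CPM. In the same heart Mt-nd1 took 33.5% of the counts of the 7 genes, against 27.8% in the nearest CBD3 heart.

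Among vehicle hearts, Mt-nd1 took 28.9% of the counts of the 7 genes in vehicle 1.1, against 25.8% in the nearest heart. Mt-nd6 took 3.64% in vehicle 2.1, against 4.64% in the nearest.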

How the results depend on the processing

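No member was called in any comparison under any alternative run, with edgeR, DESeq2 or limma. Over all genes, DESeq2 called 134 for CBD30 against vehicle, 19 for CBD3 against vehicle and 1 between the doses, limma called 0 in each, and edgeR without vehicle 3.1 called 267 for CBD30 against vehicle. Of 525 log2 fold changes of single genes under alternatives, 473 kept their direction and 52 changed it, all of them uncalled values. The cause was not tested for any of the changes of direction below.

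The median log2 fold change of the 7 genes moved most within code digits and under the block. With codes ending in 1 it was 0.24 for CBD30 and 0.26 for CBD3 against vehicle, and with codes ending in 2 it was -0.54 for CBD3. In codes ending in 1, the direction changed for CBD3 against vehicle for Mt-nd1 (0.26), Mt-nd2 (0.34), Mt-nd3 (0.36), Mt-nd4 (0.25), Mt-nd5 (0.085) and Mt-nd6 (0.33), for CBD30 against vehicle for Mt-nd2 (0.24) and Mt-nd4 (0.13), and for CBD30 against CBD3 for Mt-nd2 (-0.10) and Mt-nd4 (-0.12). In codes ending in 2, it changed for CBD30 against vehicle for Mt-nd1 (-0.14), Mt-nd3 (-0.39) and Mt-nd6 (-0.27), and for CBD30 against CBD3 for Mt-nd4l (0.24) and Mt-nd5 (0.22). Without the 3 hearts farthest out, an alternative added after seeing the data, it changed for CBD30 against vehicle for Mt-nd1 (-0.12), Mt-nd3 (-0.25) and Mt-nd6 (-0.24), and for CBD30 against CBD3 for Mt-nd2 (-0.039), Mt-nd4l (0.025) and Mt-nd4 (-0.040).

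Whether replicate numbers pair the hearts was not tested. Same-numbered CBD30 and CBD3 hearts had correlations of deviations from -0.08 to 0.31, and 2 of 5 CBD30 hearts correlated best with their own number. For same-numbered pairs with vehicle the correlations were all below 0. They were -0.196 (CBD30 4.2 and vehicle 1.2), -0.163 (CBD3 2.2 and vehicle 1.2) and -0.035 (CBD3 3.2 and vehicle 2.2). With the replicate block, columns without a number forming 1 level, the median was -0.74 for CBD30 and -0.66 for CBD3 against vehicle with 0 members called. At an unadjusted p under 0.05 the block had 4 of 7 members for each dose, against 8.88% of all genes for CBD30 and 7.996% for CBD3. The level without a number and replicate 7 held only vehicle hearts, which therefore carried no information on the difference from vehicle. Under the block that difference rested on vehicle 2.2 and on vehicle 1.2, which had the highest share of all hearts, at 8.04%. These values therefore do not stand for the whole vehicle group. Under the block the direction changed for CBD30 against vehicle for Mt-nd1 (-0.26), Mt-nd3 (-0.74) and Mt-nd6 (-0.60), and for CBD30 against CBD3 for Mt-nd2 (-0.086) and Mt-nd4 (-0.10).

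Leaving out 1 heart at a time, log2 fold changes for CBD30 against vehicle ran from -0.21 to 0.017 for Mt-nd2, -0.050 to 0.25 for Mt-nd3, -0.65 to -0.41 for Mt-nd4l and -0.018 to 0.21 for Mt-nd6. For CBD3 against vehicle they ran from -0.11 to 0.056 for Mt-nd1, -0.15 to 0.091 for Mt-nd3, -0.53 to -0.31 for Mt-nd4l, -0.21 to 0.0052 for Mt-nd4, -0.19 to 0.0015 for Mt-nd5 and -0.17 to 0.064 for Mt-nd6. For CBD30 against CBD3 they ran from -0.091 to 0.13 for Mt-nd2, -0.23 to 0.026 for Mt-nd4l, -0.11 to 0.073 for Mt-nd4 and -0.16 to 0.0053 for Mt-nd5. With the 10 most abundant genes, 3 of them members, left out of the denominator, the share of counts was 9.13% in vehicle, 8.31% in CBD3 and 8.60% in CBD30 hearts, higher because the denominator is smaller.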
